A study of Mus musculus with 8 samples.

Results

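Translation initiation factors (eIFs) are the proteins that bring a ribosome, a messenger RNA and the initiator transfer RNA together at a start codon. Their genes were compared between erythroid and epithelial cells of the mouse yolk sac. The members are all genes whose symbol on the array begins with Eif and a digit, other than Eif2s3x and Eif2s3y. By this rule 40 of the 12393 genes named on the array were members. Of these, 36 were initiation factors, all of which passed the filter on dim signals, and 4 were kinases that act on eIF2, of which 3 passed it. Over all genes, 7191 passed. The 40 genes were read by 99 probe sets, the groups of short probes that each measure a transcript, and 80 of these were tested. A further 5 probe sets annotated to an Eif gene together with another gene were not used.

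The samples came from FVB/N mice at embryonic day 9.5 and carried no treatment or introduced allele. The 4 erythroid samples were primitive erythroid precursors, the first red cell lineage of the embryo, cut by laser from 8-micron frozen sections of the yolk sac. The 4 epithelial samples, the non-erythroid control, were cut from the slides of the matching erythroid sample, which gives 4 pairs. Cutting took 2 to 3 laser pulses per erythroid cell and 1 per epithelial cell, a difference that runs with cell type. Each pair pooled 2 to 4 yolk sacs of 2 litters, so the pairs are separate pools of animals and not single embryos. RNA was amplified in 2 cycles from an oligo(dT) primer and read on Affymetrix 430A 2.0 arrays, 1 sample to an array.

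In background, eIF2 carries the initiator transfer RNA to the small ribosomal subunit, eIF1 and eIF1A keep the scanning subunit open until a start codon is met, and eIF5 and eIF5B close it and join the large subunit. The many-subunit eIF3 holds the scanning complex together. The eIF4 proteins bind the cap of the messenger RNA and unwind its leader. eIF2 has to be recharged by the exchange factor eIF2B, and kinases that phosphorylate eIF2 turn eIF2 into an inhibitor of that step. One of these kinases, HRI, the product of Eif2ak1, is inhibited by heme and is known from red cell precursors, where it ties globin synthesis to the heme supply.

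Promoters of housekeeping genes often hold ETS sites, and those of many translation genes have a run of pyrimidines at the transcription start. RefSeq promoters (GRCm38.p6, windows of 300 bases with 250 before the start and 50 after it) were at hand for 32 of the 40 member genes. The letters CCGGAA, the core of an ETS site, stood on either strand in the windows of 17 of 28 factor genes, against 20.9% of 17492 genes. The GATA letters AGATAA or TGATAA stood in 1 of 28, Eif3c, against 18.2% of all genes. CCNCNCCC, which covers the boxes bound by Krüppel-like factors, stood in 18 of 28 against 58.7%, and the E-box CANNTG in 19 of 28 against 72.1%. A run of at least 5 pyrimidines that opens with C within 5 bases of the start stood in 4 of 28 against 14.8%. The base composition of the windows was not matched, the motifs may overlap, and a match of letters is not a bound site.

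The promoters of 4 of the 5 genes called higher below are shown, since these are the genes the comparison turns on. The table had no entry for Eif3i, the other one. Each runs 5′ to 3′ on the gene's strand over 275 bases, from 250 before the transcription start to 25 after it. Capitals mark CCGGAA or its reverse complement TTCCGG and, in Eif3f and Eif2ak1, the pyrimidine run at the start. Eif1ax lies at chrX:159371928-159372202, Eif1b at chr9:120492356-120492630, Eif3f at chr7:108934165-108934439 and Eif2ak1 at chr5:143817542-143817816, all on the plus strand.
Eif1ax: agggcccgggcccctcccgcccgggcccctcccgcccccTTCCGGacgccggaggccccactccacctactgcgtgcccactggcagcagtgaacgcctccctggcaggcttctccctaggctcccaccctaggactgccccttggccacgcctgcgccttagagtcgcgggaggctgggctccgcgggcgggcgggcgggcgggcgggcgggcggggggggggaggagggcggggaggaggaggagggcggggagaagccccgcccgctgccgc
Eif1b: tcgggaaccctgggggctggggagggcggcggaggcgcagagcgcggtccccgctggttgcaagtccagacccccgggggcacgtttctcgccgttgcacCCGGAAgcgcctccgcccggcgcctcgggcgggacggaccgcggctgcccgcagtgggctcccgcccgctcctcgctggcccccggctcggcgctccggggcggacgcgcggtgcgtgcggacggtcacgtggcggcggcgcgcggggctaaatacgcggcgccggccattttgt
Eif3f: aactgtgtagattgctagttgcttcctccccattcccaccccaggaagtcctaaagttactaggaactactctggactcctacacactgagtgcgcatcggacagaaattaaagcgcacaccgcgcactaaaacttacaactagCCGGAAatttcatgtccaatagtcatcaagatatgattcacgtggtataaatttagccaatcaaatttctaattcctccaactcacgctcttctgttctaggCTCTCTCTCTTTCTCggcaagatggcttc
Eif2ak1: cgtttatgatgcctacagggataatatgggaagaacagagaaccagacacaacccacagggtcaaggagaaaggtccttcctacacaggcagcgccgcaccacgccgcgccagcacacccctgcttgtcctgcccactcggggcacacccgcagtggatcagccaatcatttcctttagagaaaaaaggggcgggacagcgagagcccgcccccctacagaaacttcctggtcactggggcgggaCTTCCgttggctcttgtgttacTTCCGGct
In Eif1ax, Eif1b and Eif3f the ETS letters began 211, 150 and 106 bases before the start, and in Eif2ak1 they began at base 18 of the transcript. Eif3f had a pyrimidine run of 15 bases and Eif2ak1 one of 5.

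Values on the arrays are deposited signals, which are linear intensities scaled so that the mean of each array after trimming 2% at each end is 500. Median signals ran from 81.6 to 127, and 48.7% to 57.7% of probe sets lay above the background level of their array, the 95th percentile of 117 probe sets for receptors of smell and taste and for keratin-associated proteins and defensins. The 3' to 5' ratio of the maker's Gapdh control, a sign of RNA length, lay between 38.7 and 44.4 in the first 4 arrays (pairs 1 and 2) and between 7.0 and 17.4 in the others, so results are also given for each set of pairs. Paired samples could differ too. The Actb control had 46.5 in erythroid and 131 in epithelial pair 1, and Gapdh had 17.4 and 8.2 in pair 3. The part of such differences in the results was not tested. Of 9 erythroid markers, such as Gata1 and Klf1, 9 were called higher in erythroid samples (summed signal 29726 to 58294, against 6148 to 13459), and of 10 markers of the visceral endoderm, the epithelium of the yolk sac, 8 were called lower (51830 to 89967, against 81855 to 144174). Both marker sets thus gave signal in both captures. Genes of mesenchyme and mesothelium were also higher in erythroid samples, 6 of 8 being called (36913 to 54939, against 7981 to 32752). The same held for 2 of 4 tested megakaryocyte and platelet genes (4876 to 18255, against 1610 to 2598) and 1 of 4 tested endothelial genes (728 to 1826, against 426 to 847). Of 2 tested leukocyte genes 0 were called by limma's test and 1 was higher at an unadjusted p under 0.05 (843 to 1269, against 549 to 891). Pecam1, Tie1, Gp9 and Cd68 were not above background on any array. The part of these cells in the results on initiation factors was not tested, and in such bulk captures fewer cells of a type and less RNA per cell cannot be told apart.

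Of the 36 initiation factor genes, 4 were higher in erythroid precursors and 0 were lower by limma's test, adjusted over all 11449 probe sets tested. The 4 were Eif1ax and Eif1b, which act at the start codon, and Eif3f and Eif3i, subunits of eIF3. They make 11.1% of the factors, and by the same rule 6.02% of all genes were called higher and 8.87% lower. The log2 fold changes (erythroid minus epithelial, n = 4 pairs) of the factors had a median of 0.18, against -0.01 over all genes, and ran from -0.85 to 0.91. They were above 0 for 25 factors and below 0 for 11. At an unadjusted p under 0.05, 10 of the 36 factors were higher and 1 was lower, against 1028 and 1209 of all 7191 genes. The differences within pairs were positive in 4 of 4 pairs for 13 factors (36.1%, against 17.9% of all genes). They were negative in 4 of 4 pairs for 1, Eif4h, whose product aids the helicase eIF4A. Other tested probe sets of Eif4h gave 0.20 and 0.26, so its direction differed between probe sets. The deposited signals of the 2 groups did not overlap for 3 factors, Eif1b, Eif3f and Eif2s2, all higher in erythroid samples, against 6.22% of all genes. In the other direction this held for 0 factors, against 7.48% of all genes.

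These counts moved with the scaling of the arrays. With the deposited scaling 4 factors were called higher and 1 lower, with arrays centred on their 75th percentile 2 and 1, and with arrays centred on their median 0 and 1. Centring on the median moved the median of all probe sets tested by -0.13. Under it the factors' median was -0.0010 and the numbers above and below 0 were 18 and 18. The factor called lower in all of these was Eif6. The count called higher was 1, Eif1ax, without pair 3 or without pair 4. Without the pair term it was also 1, and without a variance trend it was 0.

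**Figure D1:**
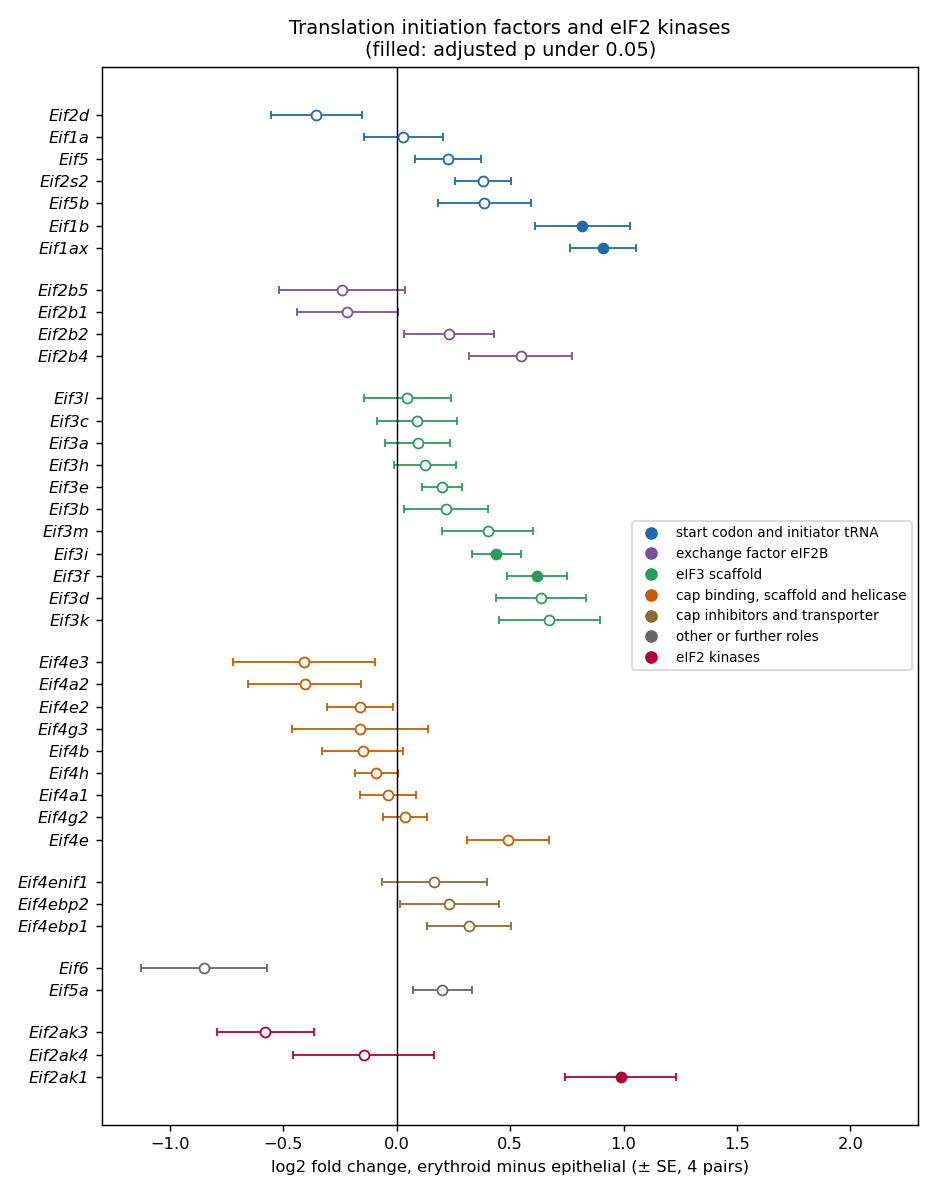
Log2 fold change, erythroid minus epithelial, of each tested initiation factor and eIF2 kinase gene (x axis, with the standard error of the fit over 4 pairs), grouped and coloured by role (y axis). Filled points are the 5 genes with an adjusted p under 0.05, all to the right of 0. The 11 eIF3 genes lie to the right of 0 and 7 of the 9 genes of the cap group to the left. The eIF3 pattern depends on the scaling of the arrays and on the pairs used (8 of 11 in pairs 1 and 2). That of the cap group depends on the probe sets read (4 of 9 to the left when tested probe sets are averaged).

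The genes that act at the start codon had a median of 0.38 over 7 genes, with 2 called higher (28.6%, against 6.02% of all genes). Eif1ax, on the X chromosome, encodes eIF1A, which with eIF1 holds the scanning subunit in its open form. Its signals in pairs 1 to 4 were 8044, 8233, 9416 and 5183 in erythroid samples and 5386, 4116, 3559 and 3468 in epithelial samples. The erythroid sample was the higher in each pair, while erythroid pair 4 lay below epithelial pair 1, so the groups overlapped. The log2 fold change was 0.91 ± 0.15 (SE, limma adjusted p = 0.00353). The second probe set of the gene was far dimmer, at 280.1, 192, 298 and 236 against 78.6, 105, 53.6 and 55.5, and was above background on 1 of the 4 epithelial arrays. With its epithelial values set at no less than the lowest signal above background of their array, it was at least 2.39-fold higher in erythroid samples (limma adjusted p of the fit = 0.0137). The call on Eif1ax was lost in 2 of 17 alternatives, at an adjusted p of 0.0742 with median centring and of 0.0570 without a variance trend. The lowest change was 0.70, with median centring.

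Eif1b encodes a close relative of eIF1, the factor that guards the choice of start codon. It gave signals of 2273, 1813, 1988 and 2783 in erythroid and 1472, 1534, 1010 and 1188 in epithelial samples. Every erythroid value lay above every epithelial value. The change was 0.82 ± 0.21 (limma adjusted p = 0.0268). It was 0.43 over pairs 1 and 2 and 1.20 over the other pairs, an interaction that was not called (adjusted p = 0.298). It was no longer called without pair 3, at 0.74 (adjusted p = 0.101), or without pair 4, at 0.64 (adjusted p = 0.156).

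Other genes of the start codon group were not called. Eif2s2 encodes the beta subunit of eIF2, and its signals were 6403, 7230, 6221 and 6571 in erythroid against 5132, 5166, 5304 and 5081 in epithelial samples. These groups did not overlap, but the change of 0.38 ± 0.12 missed the threshold (limma adjusted p = 0.0639), and its 5 tested probe sets ran from -0.04 to 0.38. Eif5b, for the factor that joins the ribosomal subunits, had 0.39 ± 0.20 (adjusted p = 0.239), and Eif5, for the activator of GTP hydrolysis by eIF2, had 0.23 ± 0.14 (adjusted p = 0.331). Eif2d, for a factor that can deliver transfer RNA without GTP, had -0.35 ± 0.20 (adjusted p = 0.274). Its 3 tested probe sets ran from -0.35 to 0.33. Eif1a, the second gene for eIF1A, had signals of 2052, 2369, 1673 and 1913 in erythroid and 2218, 1820, 2072 and 1906 in epithelial samples. The groups were interleaved, and the change was 0.03 ± 0.17 (adjusted p = 0.935), with a sign that turned under 6 of the alternatives. The second probe set of Eif1a, also not called, gave -0.54. Of the pair of genes for eIF1A, Eif1ax was thus called and Eif1a was not, and the difference between them was not tested.

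All 11 eIF3 genes had log2 fold changes above 0 under the quantile, offset and deposited scalings, with 8 of 11 above 0 when arrays were centred on the 75th percentile and 7 of 11 when centred on the median. Their median was 0.22, and 2 of 11 were called higher (18.2%, against 6.02% of all genes). In normalised values 7 of 11 were higher within each of the 4 pairs (63.6%, against 17.9% of all genes). The number above 0 was 8 of 11 in pairs 1 and 2 alone and 9 of 11 without pair 3. Eif3f, for a subunit with a fold related to proteases of ubiquitin, had signals of 8741, 8347, 12854 and 10568 in erythroid and 6657, 6152, 6313 and 6928 in epithelial samples. These epithelial signals lay close together and all below the erythroid ones. In normalised log2 values the groups overlapped, with epithelial pair 4 at 12.95 and erythroid pair 2 at 12.89. The change was 0.62 ± 0.13 (limma adjusted p = 0.0129), and it was not called without pair 3, at 0.52 (adjusted p = 0.0742), or without pair 4, at 0.55 (adjusted p = 0.0809).

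Eif3i encodes a subunit shaped as a propeller that sits at the edge of eIF3. It gave 12674, 12872, 12059 and 8276 in erythroid and 11220, 7742, 8078 and 6336 in epithelial samples. Pair 4 was the lowest of each group and erythroid pair 4 lay below epithelial pair 1, so the groups overlapped although each pair had the higher value on the erythroid side. The change was 0.44 ± 0.11 (limma adjusted p = 0.0230), and the second probe set, at 0.54, was called as well. Leaving out pair 2, 3 or 4 ended the call, with changes of 0.42, 0.42 and 0.41 and adjusted p-values of 0.0670, 0.0983 and 0.101.

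The largest change within eIF3 was that of Eif3k, a small subunit that is dispensable in some organisms, and it was not called. Its signals were 1226, 611, 1825 and 1576 in erythroid and 704, 626, 853 and 955 in epithelial samples, with pair 2 level and the other pairs higher on the erythroid side. The change was 0.67 ± 0.22 (limma adjusted p = 0.0671). Eif3d, whose product can itself bind the cap of some messenger RNAs, had 1317, 985, 1415 and 2146 against 777, 907, 915 and 1155. Its groups overlapped through erythroid pair 2, and the change was 0.64 ± 0.20 (adjusted p = 0.0578). Eif3m had 0.40 and Eif3b, a core subunit, 0.22. Eif3h, Eif3a, Eif3c and Eif3l, of which Eif3a and Eif3c are core subunits, lay between 0.05 and 0.12. The 4 tested probe sets of Eif3c ran from 0.09 to 0.61, none of them called. For Eif3e the reading depended on the probe set: the brightest gave 0.20 ± 0.09 (adjusted p = 0.157), while its other 2 tested probe sets gave 0.42 each and were called.

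**Figure D2:**
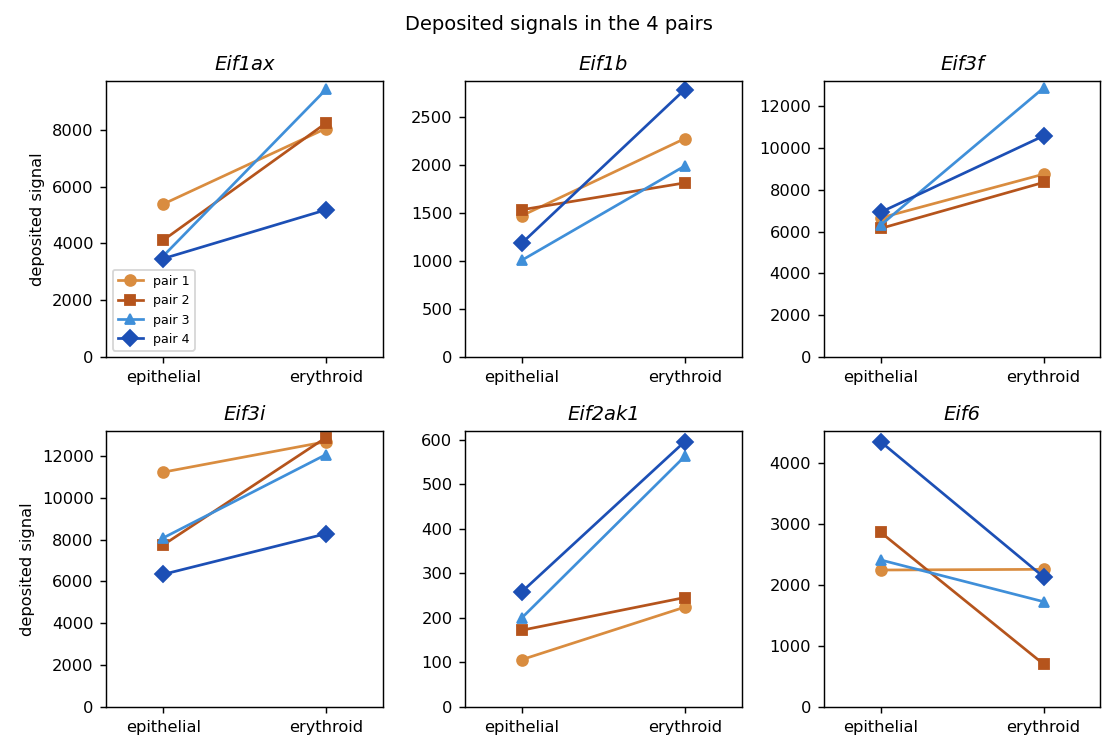
Deposited signal (y axis, linear from 0, a separate scale for each gene) in the epithelial and erythroid samples of each pair (x axis), joined by a line per pair, for the 5 called genes and for Eif6. The line rises in 4 of 4 pairs for the called genes. For Eif6 it is level in pair 1 and falls in the other 3 pairs, from 2858 to 702 in pair 2 and from 4342 to 2131 in pair 4.

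The 4 tested genes of the exchange factor eIF2B gave 0 calls in either direction by limma's test (1 higher at an unadjusted p under 0.05, Eif2b4) and a median of 0.01. Eif2b4, for its delta subunit, had signals of 412, 309, 1050 and 702 in erythroid and 233, 278, 539 and 608 in epithelial samples. The erythroid sample was higher in each pair, but both groups spread widely over the pairs, and the change of 0.55 ± 0.23 missed the threshold (limma adjusted p = 0.134). Eif2b2, the beta subunit, had 0.23, Eif2b1, the alpha subunit, -0.22 and Eif2b5, the catalytic epsilon subunit, -0.24. The tested probe sets of Eif2b2 had both signs, and the lowest of them was above background on 2 of the 4 erythroid arrays. The probe set of Eif2b5 was above background on 3 of the 4 erythroid arrays, so its -0.24 rests in part on a signal under background. Its differences in pairs 1 to 4 were -0.89, 0.23, 0.21 and -0.51.

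In the cap group, 0 of 9 genes were called by limma's test (1 higher at an unadjusted p under 0.05, Eif4e) and 7 of 9 were below 0, with a median of -0.15. The count below 0 was 6 with the deposited scaling, 8 with median centring and 4 when the tested probe sets of a gene were averaged, so no direction holds for the group. Eif4e encodes the protein that binds the cap itself, and its signals were 3776, 3511, 4638 and 4514 in erythroid and 1770, 3214, 3229 and 4241 in epithelial samples. Each pair was higher on the erythroid side, pair 1 by the most. The change was 0.49 ± 0.18 (limma adjusted p = 0.0986), and the other 2 tested probe sets lay near 0, the lower at -0.05. Eif4a1, for the main helicase, had -0.04 ± 0.12 (adjusted p = 0.867), but its 3 tested probe sets ran from -0.46 to 0.70, none of them called. The lowest of them was dim, above background on 3 of the 4 arrays of each cell type, with erythroid pair 3 at 23.2. The related gene Eif4a2 had -0.41 ± 0.25 (adjusted p = 0.307). Signals of Eif4a2 were 1312, 2988, 679 and 2075 against 1435, 2658, 1821 and 2562, so that erythroid pair 3 stood far below its partner. In pairs 3 and 4 alone Eif4a2 was called, at -0.84 (adjusted p = 0.00952), against 0.02 in pairs 1 and 2. Without pair 3 the change over the other pairs was -0.07. The interaction was not called (adjusted p = 0.311).

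Eif4g2 encodes a scaffold that lacks the site for eIF4E and serves initiation without it. Its brightest probe set gave 0.04 ± 0.10 (limma adjusted p = 0.842), a value whose sign turned under 3 alternatives. A second probe set was called higher at 0.55 ± 0.16 (limma adjusted p = 0.0444), and a dimmer one had 0.60 ± 0.19 (adjusted p = 0.0641). Eif4e2 and Eif4e3, relatives of Eif4e, had -0.16 and -0.41, but -0.02 and -0.03 without pair 4, and Eif4e2 was not negative on every probe set, with 0.35 on a dim one that was above background on 3 of the 4 epithelial arrays. The scaffold gene Eif4g3 had -0.16, and the helicase partners Eif4b and Eif4h had -0.15 and -0.09. None of these was called.

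The 3 genes for proteins that hold eIF4E back or move it were not called, also at an unadjusted p under 0.05 in limma's fit. Eif4ebp1, the target of mTOR that keeps eIF4E from its scaffold, had signals of 5111, 4235, 4853 and 5069 in erythroid and 5665, 4510, 3435 and 3185 in epithelial samples. Erythroid samples were lower in pairs 1 and 2 and higher in pairs 3 and 4. The change over all pairs was 0.32 ± 0.19 (limma adjusted p = 0.283). Pairs 1 and 2 gave -0.10 and the other pairs 0.74, with the smallest interaction p among the factors (adjusted p = 0.109). Another probe set of the gene gave -0.34, so the direction also differed between its probe sets. Eif4ebp2 had 0.23 and Eif4enif1, for the transporter of eIF4E, 0.17. Read from their brightest probe sets, these 3 genes had a median of 0.57 in pairs 3 and 4, against -0.10 in the other set.

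**Figure D3:**
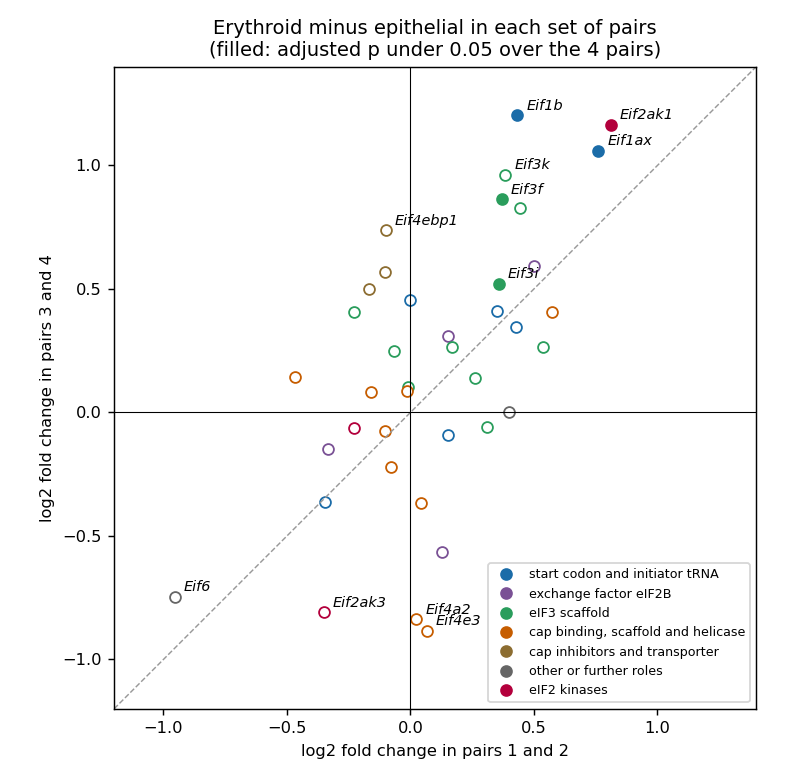
Log2 fold change, erythroid minus epithelial, in pairs 1 and 2 (x axis) against pairs 3 and 4 (y axis) for each tested member, coloured by role, with the line of equality dashed. Filled points are genes called over the 4 pairs. The called genes lie above the line, with larger values in pairs 3 and 4. Eif4ebp1 lies at -0.10 and 0.74 on the probe set read, while another of its probe sets had 0.16 and -0.83. No interaction was called for a member.

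Pairs 3 and 4 gave a median of 0.26 across the 36 factors, and pairs 1 and 2 one of 0.10, against 0.01 and -0.03 for all genes. A test of the difference between the sets of pairs called 0 factors, against 2.00% of all genes. Erythroid and mesenchymal markers also had larger values in pairs 3 and 4, with list medians of 3.25 and 2.46 against 1.33 and 0.36. Their part in the larger values of the factors was not tested.

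Eif6 and Eif5a have further roles. Eif6 encodes a protein that keeps the large ribosomal subunit from joining too early and that takes part in making that subunit. Its signals were 2254, 702, 1724 and 2131 in erythroid and 2243, 2858, 2407 and 4342 in epithelial samples. The groups overlapped only through pair 1, whose 2 samples were level, and erythroid pair 2 stood lowest. The change of -0.85 ± 0.28 was the lowest of all factors and missed the threshold (limma adjusted p = 0.0659). It was called in 7 of 16 alternatives, among them the deposited scaling (-0.88, adjusted p = 0.0488) and the fit without pair 1 (-1.15, adjusted p = 0.0233), and without pair 2 it was -0.49 (adjusted p = 0.218). Eif5a encodes the factor with the modified residue hypusine, which eases peptide bonds between prolines. Its brightest probe set gave 0.20 ± 0.13 (adjusted p = 0.339), and a dimmer one was called at 0.71 ± 0.21 (limma adjusted p = 0.0455).

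Over all tested probe sets rather than 1 per gene, 10 of 76 factor probe sets were called higher and 0 lower, against 6.19% of all probe sets called higher. These 10 lay in 7 genes. Eif3e, Eif4g2 and Eif5a were called only on probe sets other than the brightest. Of the 24 members with at least 2 tested probe sets, 12 had values of both signs. All tested probe sets were called in 3 genes, Eif1ax, Eif3i and Eif2ak1. Without the probe sets whose design may read several transcripts, 24 factors could be read, of which 3 were called higher, Eif1ax, Eif1b and Eif3i.

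**Figure D4:**
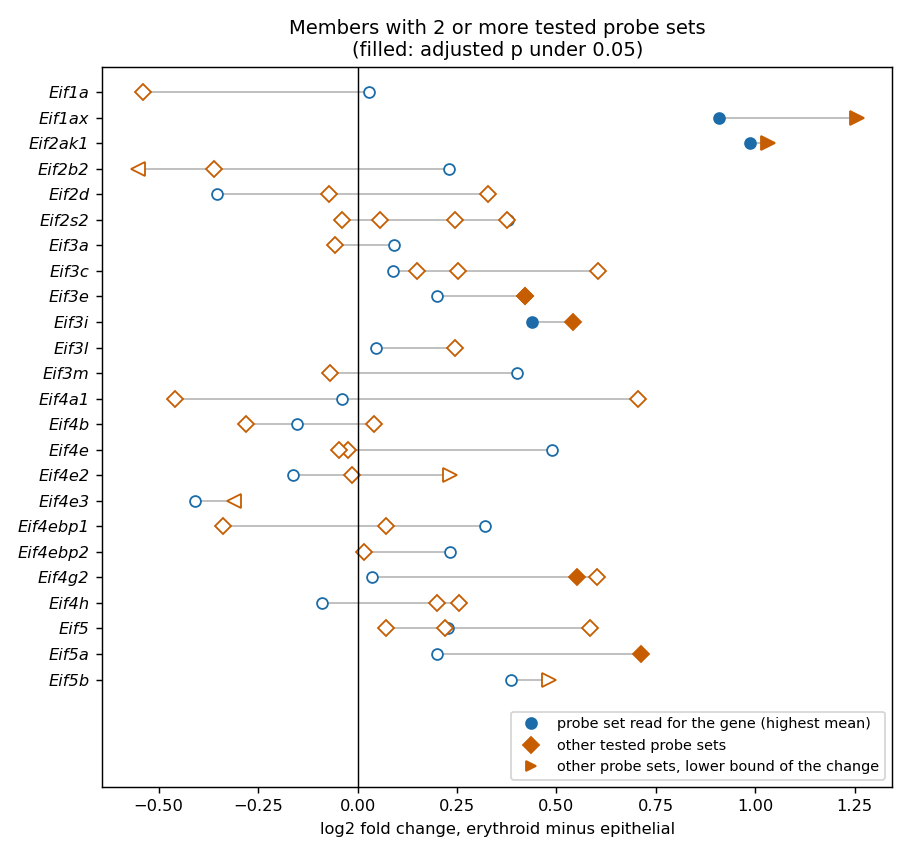
Log2 fold change, erythroid minus epithelial (x axis), of each tested probe set of the 24 members with at least 2 (y axis, in alphabetical order). Circles are the probe set read for the gene and diamonds the others. Triangles are lower bounds of the change and point away from 0. They are used where a probe set was under background on some or all arrays of the dimmer cell type only. Dim probe sets of Eif4a1 and Eif4ebp1, under background on some arrays of both cell types, are drawn at their fitted change. Filled symbols have an adjusted p under 0.05, and all of them lie to the right of 0.

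Among the kinases of eIF2, Eif2ak1 was called higher in erythroid precursors, and Eif2ak3 and Eif2ak4 were not called. The read probe set of Eif2ak1, the heme-regulated kinase HRI, had signals of 224, 246, 562 and 596 in erythroid and 106, 172, 200 and 259 in epithelial samples. Each erythroid sample was above its partner, and the groups overlapped because the erythroid values of pairs 1 and 2 lay below the epithelial value of pair 4. The change was 0.99 ± 0.24 (limma adjusted p = 0.0230), with 0.81 in pairs 1 and 2 and 1.16 in pairs 3 and 4. It was not called without pair 3, at 0.87 (adjusted p = 0.0955), or without pair 4, at 0.98 (adjusted p = 0.130).

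A second probe set of Eif2ak1 had 160.3, 168, 235 and 345 in erythroid and 42.0, 34.9, 26.8 and 19.2 in epithelial samples. The groups were far apart, and none of the 4 epithelial values was above background. The gene was thus at least 2.05-fold higher in erythroid samples by this probe set, with the dim group set, per array, at the higher of its own value and the lowest signal above background (limma adjusted p of the fit = 0.00993). The dimmest probe set of the gene did not pass the filter.

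Eif2ak3 encodes PERK, the kinase of the stressed endoplasmic reticulum. Its signals were 448, 723, 370 and 440 in erythroid and 521, 1012, 556 and 851 in epithelial samples. The erythroid sample was the lower in 4 of 4 pairs, and the groups overlapped. The change of -0.58 ± 0.21 missed the threshold (limma adjusted p = 0.0959). Eif2ak4, for GCN2, the kinase that senses uncharged transfer RNA, had 202, 172, 193 and 211 against 324, 155, 235 and 124, with no common direction and a change of -0.15 ± 0.31 (adjusted p = 0.793). Eif2ak2, for PKR, which senses double-stranded RNA, was not tested, and its brighter probe set was above background on 0 erythroid arrays and 1 epithelial array.

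The list for the eIF2 phosphatase and the stress response, which mixes phosphatase subunits with stress genes, did not move in 1 direction. Of its 20 tested genes, 2 were higher and 3 lower in erythroid precursors, and the median was -0.11. These make 10% and 15%, against 6.02% and 8.87% of all genes. Asns, for asparagine synthetase, had signals of 1771, 1935, 2811 and 2608 in erythroid and 641, 890.3, 476 and 487 in epithelial samples, with no overlap. Its change was 1.91 ± 0.27 (limma adjusted p = 0.00225). Atf4, the transcription factor whose translation rises when eIF2 is phosphorylated, had 8911, 11104, 7381 and 3484 against 7408, 7305, 3522 and 1959. It was higher in each pair though the groups overlapped, with 0.70 ± 0.16 (limma adjusted p = 0.0168).

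In the same list Phgdh and Psat1, enzymes of serine synthesis, and Cebpb, a transcription factor, were lower. Phgdh had 2634, 2714, 3924 and 2935 in erythroid and 6214, 6353, 12049 and 8032 in epithelial samples, so that every erythroid value lay below every epithelial one. Its change was -1.37 ± 0.14 (limma adjusted p = 0.00102). Those of Cebpb and Psat1 were -1.35 and -0.66. Known targets of Atf4 were thus found on both sides, Asns above and Phgdh and Psat1 below.

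Enzymes of heme synthesis, whose product inhibits HRI, rose in erythroid precursors for 6 of 8 tested genes of heme synthesis and breakdown, with a list median of 1.31. These 6 make 75% of the list, against 6.02% of all genes called higher. Alas2, the erythroid enzyme of the first step, had 371, 458, 5501 and 3780 against 217, 385, 289 and 674. Erythroid pairs 3 and 4 stood far above all other samples, and pairs 1 and 2 only a little above their partners. The change was 1.98 ± 0.52 (limma adjusted p = 0.0301), with 0.50 in pairs 1 and 2 and 3.47 in pairs 3 and 4 (interaction, adjusted p = 0.00256). Urod and Uros, for later steps, had 1.73 and 1.64. Alas2 also stands among the erythroid markers.

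Lists for the other steps of translation had medians from 0.00 to 0.34. Shares called higher were 12.5% for elongation, 14.3% for termination and recycling, 20% for poly(A) binding and 8.70% for aminoacyl-tRNA synthetases. Of all genes, 6.02% were called higher. Of 8 tested elongation factor genes, 1 was higher, Eef1b2 at 0.43, and the median was 0.19. Of 7 tested genes of termination and recycling, 1 was higher, Etf1, for the release factor that reads stop codons, at 0.74, and the median was 0.34. Among 10 genes for proteins of the poly(A) tail and partners of initiation factors, 2 were higher, the poly(A)-binding protein genes Pabpc1 (0.73 ± 0.12, limma adjusted p = 0.00333) and Pabpc4 (0.78), with a median of 0.23. Pabpc1 had signals of 7417, 5862, 14157 and 10237 in erythroid and 4344, 3738, 7611 and 7087 in epithelial samples. The erythroid sample was higher in each pair, while the epithelial samples of pairs 3 and 4 overlapped the erythroid samples of pairs 1 and 2.

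Of 23 tested aminoacyl-tRNA synthetase genes, 2 were higher, Eprs at 0.69 and Nars at 0.45, and the median was 0.14. For the signals to the cap complex, such as mTOR and its partners, 0 of 6 tested genes were called and the median was 0.00. At an unadjusted p under 0.05 these 6 genes gave 0 calls in limma's fit as well. These lists and the 2 before them together held 82 tested genes, with a median of 0.17. Of these, 14 were called higher and 3 lower (17.1% and 3.66%, against 6.02% and 8.87% of all genes). The heme list gave 6 of the 14 called higher.

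**Figure D5:**
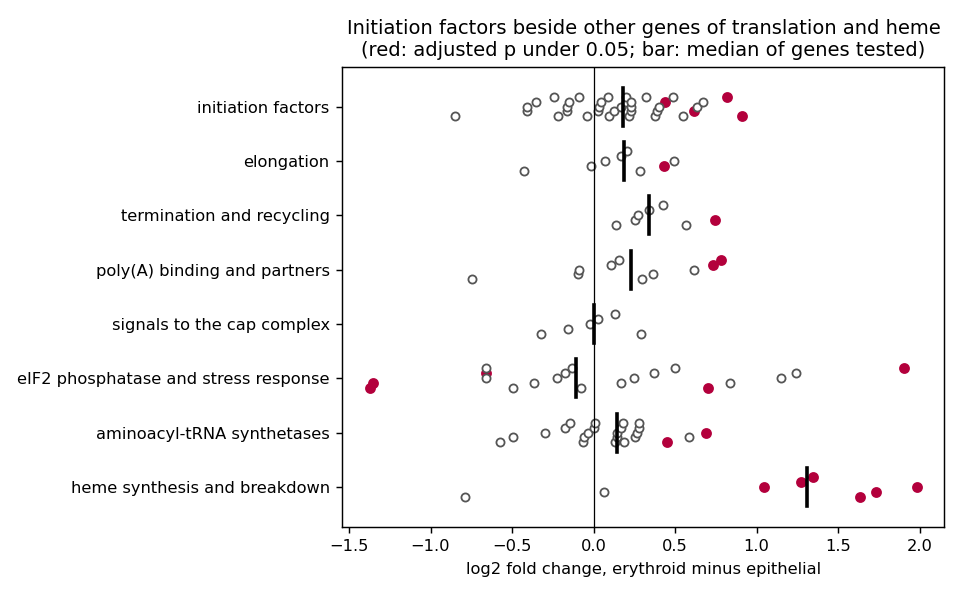
Log2 fold change, erythroid minus epithelial (x axis), of each tested gene in the initiation factors and in 7 other lists (y axis). Red points have an adjusted p under 0.05 and black bars are list medians. The initiation factors have a median of 0.18, near that of elongation (0.19) and poly(A) binding (0.23). The heme list stands at 1.31, and the stress response list spreads from -1.37 to 1.91.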

How the data were processed

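The authors deposited 1 MAS5 signal per probe set and array, a linear intensity. GCOS, MAS5 and affy are named per the submitters' processing notes, with versions not given in the sources used here. Log2 was taken after adding 8.14 (10th percentile of all values), and the arrays were quantile normalised without 64 control probe sets. Probe sets entered the test with signals at or above the array median on 4 or more of the 8 arrays. limma 3.58.1 in R 4.3.3 was fitted with the pair and the cell type as terms and a variance trend (3 residual degrees of freedom, two-sided, Benjamini-Hochberg over 11449 probe sets, threshold 0.05). The brightest tested probe set stood for each gene. Differences within pairs are of normalised values, and overlap is of deposited signals. The labels pair the samples by slide, and the deviations of paired samples from their group means correlated at 0.44, 0.34, 0.31 and 0.54. The procedure was tested on simulated data.

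The rule named called members, the largest and smallest uncalled change of each role group, all kinases, and up to 3 called genes per direction of each other list. Other members were named after their values were seen. The members and lists were chosen with earlier results of these data known. Alternatives covered scaling, offset, filter, trend, pair term, probe sets and samples. Array features annotated to several genes were left out. The number of arrays limits the precision.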

Additional observations from a re-analysis of the deposited data

Results flagged for a closer look

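In 3 of 78 groups of 4 samples, 1 sample stood far from the others on the normalised log2 scale, and chance alone flags about 1 group in 20. Epithelial pair 4 had 12.95 for Eif3f, against 12.55 to 12.62 in the other epithelial samples. Epithelial pair 4 also had 10.61 for Eif3l, a gene for another eIF3 subunit, against 9.60 to 9.74. Epithelial pair 1 had 12.19 for Eif2s2, against 12.34 to 12.37. For Eif3f and Eif2s2 the deposited epithelial signals, these included, still lay below every erythroid signal. On the normalised scale this held for Eif2s2 but not for Eif3f, where epithelial pair 4 lay above erythroid pair 2, at 12.89.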

How the results depend on the processing

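Among initiation factors, 4 genes were called higher and 0 lower. Across alternatives the counts were 4 and 1 with the deposited scaling, 0 and 1 with median centring, 2 and 1 with 75th percentile centring, 0 and 0 without a variance trend, 5 and 1 with the filter on all 8 arrays, 2 and 1 in pairs 1 and 2 alone, 7 and 2 in pairs 3 and 4 alone, and between 1 and 5 and between 0 and 1 when 1 pair was left out. For the other lists, 14 higher and 3 lower became 7 and 5 with median centring, 5 and 1 without a variance trend, 9 and 1 without probe sets that may read several transcripts, 9 higher in pairs 1 and 2, 10 lower in pairs 3 and 4, 5 lower with the deposited scaling, and 6 to 13 and 2 to 5 with 1 pair left out. Without the replicate block for the pairing, 1 factor was called higher, the other lists gave 4 and 1, and Eif2ak1 was not called (0.99, adjusted p = 0.174). Eif2ak1 was also not called with median centring (0.85, adjusted p = 0.0505), without a filter (0.99, adjusted p = 0.0617) or in pairs 1 and 2 (0.81, adjusted p = 0.358), and ran from 0.87 to 1.06 with 1 pair left out. Of the 34 tested members that were not called, 20 had another sign under at least 1 alternative. For those named by the rule the values were as follows. Median centring gave Eif4g2 -0.0401, Eif3l -0.16 and Eif1a -0.19. The 75th percentile gave Eif3l -0.00977 and Eif1a -0.0428, the deposited scaling gave Eif1a -0.00865 and averaging probe sets gave Eif1a -0.26. Pairs 1 and 2 gave Eif4g2 -0.0161, Eif4enif1 -0.17, Eif4ebp1 -0.10, Eif3l -0.0107 and Eif2b1 0.13, and pairs 3 and 4 gave Eif1a -0.0931. Without such probe sets Eif4ebp1 had -0.34. With 1 pair left out, Eif2ak4 ran from -0.33 to 0.0907, Eif4g2 from -0.00542 to 0.10, Eif3l from -0.0488 to 0.10 and Eif1a from -0.0881 to 0.12. The cause was not tested for any of these. The number of arrays, 4 a group, limits the precision, and signals under background give only bounds.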
